A study of Mus musculus with 4 samples.

Results

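Aminoacyl-tRNA synthetases are the enzymes that join each amino acid to its transfer RNA, the step that lets a ribosome read the genetic code. The members described here are the 37 rows, of 22155 gene symbols in the count table, whose symbol has the form of a synthetase name (a letter followed by ars, with or without 1, 2, a or b) or is Eprs. By symbol, 17 that end in 2 encode the mitochondrial enzymes and the other 20 the cytosolic ones. All 37 had enough counts to enter the test, which was made on 13309 genes.

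The libraries are messenger RNA from the liver of wild-type C57BL/6 mice aged 8 to 10 weeks. Every mouse had taken a liquid Lieber-DeCarli diet with 5% ethanol for 10 days, so both groups share the chronic ethanol exposure. In the gavage group (2 libraries) a binge of 5 g ethanol per kg body weight was given into the stomach 9 h before the liver was taken. The ethanol alone group (2 libraries) is titled chronic ethanol alone, which was read as no binge. All 4 samples carry an identical treatment text that includes the binge, so the groups were taken from the sample titles. Whether the ethanol alone mice received a control gavage is not given in the sources used here. Whether each library is its own animal is not in the labels, and the p-values reflect the spread of these libraries alone, which may be technical. Values are CPM (counts divided by the scaled total of the library), given in the order ethanol alone replicates 1 and 2, then gavage replicates 1 and 2, and a log2 fold change is gavage over ethanol alone with its standard error (SE).

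Cells keep separate sets of synthetases for the cytosol and for the mitochondrion, both encoded in the nucleus. The cytosolic set serves the ribosomes that make plasma proteins and metabolic enzymes in hepatocytes, and several of its members are held together in a multisynthetase complex. The mitochondrial set serves only the small number of proteins encoded by mitochondrial DNA. Uncharged transfer RNA activates the kinase GCN2, which leads to translation of the transcription factor ATF4, and genes of cytosolic synthetases are among the known targets of ATF4 and of MYC. Gars and Kars each make a cytosolic and a mitochondrial enzyme from the same gene, and mitochondrial glutamine transfer RNA is charged by an indirect route, so glycine, lysine and glutamine have no row ending in 2.

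Total counts ran from 28791281 to 30347558 per library. Hepatocyte markers (8 of 8 tested, 7 lower with gavage, 3 of them at an unadjusted p under 0.05) summed to 146427 and 127677 CPM with ethanol alone and 101566 and 126636 CPM with gavage. Over all tested genes, 48.3% were lower, and 9.85% were lower at that threshold. Both libraries numbered 1 stood apart by skeletal muscle markers (8 of 8 tested), which summed to 377, 10.9, 786 and 1.16 CPM, and by adipose markers (5 of 6 tested), at 50.4, 5.71, 67.8 and 7.11 CPM. Pancreatic exocrine markers (1 of 6 tested) summed to 969 CPM in replicate 1 of ethanol alone and to between 4.42 and 8.22 CPM in the others. Kupffer cell markers summed to 632 and 637 CPM with ethanol alone and 371 and 412 CPM with gavage. All 10 were lower and not overlapping, where 27.2% of all tested genes were. Neutrophil markers (4 of 10 tested) summed to 5.15, 4.53, 18.1 and 6.54 CPM, with Ly6g and Mpo at 0 in 3 of the 4 libraries. The part of these shifts in the synthetase results was not tested. Summed sinusoidal endothelial markers lay between 425 and 484 CPM, stellate cell markers between 411 and 533, cholangiocyte markers between 57.6 and 80.8, erythroid markers between 73.9 and 197, and lymphocyte markers between 2.03 and 8.07 CPM. No marker on these lists was at 0 in all 4 libraries. In bulk tissue, fewer cells of a type and less RNA per cell cannot be told apart.

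After the gavage, transcripts of the cytosolic synthetases stood higher almost throughout the set, and those of the mitochondrial synthetases did not. Of 20 cytosolic members, 19 had a log2 fold change above 0, where 51.7% of all tested genes did, and the median was 0.54 against 0.02 over all tested genes. Of 17 mitochondrial members, 8 were above 0 and 9 below, where 48.3% of all genes were below, and the median was -0.09. Summed over the cytosolic set, the levels were 1359 and 1388 CPM with ethanol alone and 2122 and 1950 CPM with gavage, so the groups did not overlap. Summed over the mitochondrial set they were 444 and 527 against 369 and 463 CPM, which overlap.

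No single synthetase passed the test adjusted over all genes. After Benjamini-Hochberg adjustment edgeR's quasi-likelihood test called 0 of 13309 genes (0%), and so 0 of the 37. At an unadjusted p under 0.05, 10 cytosolic members stood higher and 0 lower, where 8.91% of all genes stood higher and 9.85% stood lower, and of the mitochondrial members 1 was higher and 3 were lower. The cytosolic count of 10 became 3 without replicate 1 of the gavage group and 5 without replicate 2 of that group, and the 3 lower mitochondrial members became 0 without either of them. DESeq2 called 6 cytosolic members higher and 0 lower, against 4.37% and 5.43% of the genes it gave an adjusted p, and 0 mitochondrial members. The likelihood-ratio test of edgeR called 3 cytosolic members higher (2.14% of all genes), and limma-voom called 0 genes. The groups were fully separated for 17 cytosolic members, all higher with gavage, where 27.4% of all genes were higher and 27.2% lower without overlap. For the mitochondrial set, 6 were higher and 8 lower without overlap.

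**Figure D1:**
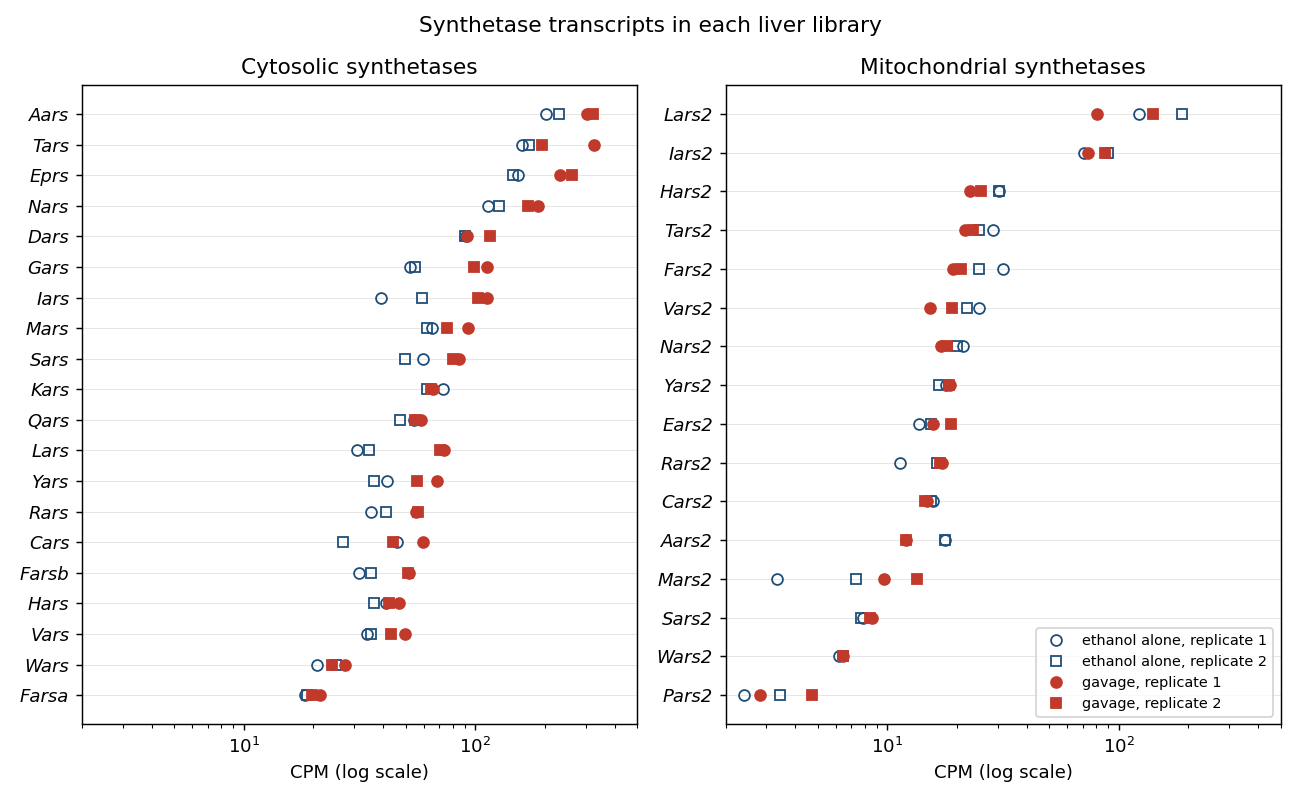
CPM of 20 cytosolic and 16 mitochondrial synthetases in each of the 4 libraries, on a log scale, with cytosolic members in one panel and mitochondrial members in the other, ordered by mean CPM. Open blue symbols are ethanol alone and filled red symbols gavage, circles replicate 1 and squares replicate 2. For 17 of 20 cytosolic genes both red symbols lie to the right of both blue ones, while 6 of the mitochondrial genes shown have that order and 7 the opposite.

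The largest differences among cytosolic members were those of isoleucine, leucine and glycine. Iars (chromosome 13, 49682100 to 49734267 in GRCm38), the isoleucyl-tRNA synthetase, stood at 39.2 and 59.0 CPM with ethanol alone and at 112.9 and 102.6 CPM with gavage. Its log2 fold change was 1.14 (SE 0.26, adjusted p = 0.153 in edgeR's quasi-likelihood test, 0.00182 in DESeq2), and both gavage libraries lay above both others. Of its 50-base stretches, 8.61% also occur in the gene model Gm4849, so a part of its reads may have been split or lost in counting. Lars (chromosome 18, 42202298 to 42262194), the leucyl-tRNA synthetase that also senses leucine for the growth kinase mTORC1, stood at 30.8 and 34.8 against 73.3 and 70.2 CPM. Its log2 fold change was 1.13 (SE 0.17, adjusted p = 0.124 in edgeR's quasi-likelihood test, 6.31e-06 in DESeq2), and it had the smallest p of the 37. Gars (chromosome 6, 55038007 to 55079500), the glycyl-tRNA synthetase of both compartments, stood at 52.0 and 54.7 against 112.4 and 98.7 CPM, a log2 fold change of 0.98 (SE 0.18). In edgeR's quasi-likelihood test its adjusted p was 0.134, and in DESeq2 it was 0.000102. These 3 genes had close to 2 times the level with gavage, with ratios of mean CPM of 2.2, 2.19 and 1.98, and they were the 3 called by the likelihood-ratio test of edgeR. Over all alternatives, their adjusted p-values in these edgeR, DESeq2 and limma-voom fits ran from 0.00182 to 0.541 for Iars, from 6.31e-06 to 0.466 for Lars and from 0.000102 to 0.54 for Gars.

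A further group of abundant cytosolic members stood about 1.5 times higher. Eprs (chromosome 1, 185363044 to 185428360), a fused enzyme that charges both glutamate and proline, stood at 153 and 145.5 CPM against 232 and 261.5 CPM with gavage (log2 fold change 0.73, SE 0.20). Its adjusted p was 0.194 in edgeR's quasi-likelihood test and 0.00491 in DESeq2. Aars, the alanyl-tRNA synthetase, stood at 201 and 230.1 against 305 and 324 CPM, and 14.3% of its annotated exon bases lie also in Exosc6 on the same strand. Nars, for asparagine, stood at 113 and 127 against 187 and 169 CPM. In these 3 genes the gavage libraries were close to each other and above both ethanol alone libraries. Tars, for threonine, differed between the gavage libraries, at 325 CPM in replicate 1 and 195 in replicate 2 against 159 and 170.1 CPM. Its log2 fold change of 0.66 (SE 0.30) moved between 0.25 and 0.98 when 1 library at a time was left out.

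Smaller cytosolic members showed the same order of the groups. Farsb, the beta subunit that forms the phenylalanine enzyme together with the alpha subunit Farsa, stood at 31.5 and 35.3 against 51.6 and 51.3 CPM (log2 fold change 0.63, SE 0.16, adjusted p = 0.181 in edgeR's quasi-likelihood test, 0.0359 in DESeq2). Farsa stood at 18.3 and 18.8 against 21.3 and 19.8 CPM, a log2 fold change of 0.15 (SE 0.15). The difference between their fold changes was not tested, and 9.47% of the exon bases of Farsb overlap Sgpp2 on the opposite strand. Yars, for tyrosine, stood at 41.5 and 36.7 against 68.2 and 56.1 CPM (log2 fold change 0.67, SE 0.19, adjusted p = 0.197 in edgeR's quasi-likelihood test, 0.0491 in DESeq2). Sars, for serine, stood at 59.5 and 49.5 against 85.0 and 80.4 CPM, and Rars, for arginine, at 35.3 and 41.3 against 55.4 and 56.5 CPM. Over those alternatives the adjusted p-values in edgeR, DESeq2 and limma-voom ran from 0.00491 to 0.582 for Eprs, from 0.0359 to 0.613 for Farsb and from 0.0491 to 0.645 for Yars. Each of the cytosolic genes of this group, Farsa included, had both gavage libraries above both ethanol alone libraries. Vars, Mars and Cars, for valine, methionine and cysteine, had log2 fold changes of 0.42 (SE 0.17), 0.42 (SE 0.19) and 0.51 (SE 0.32), and in Cars the libraries overlapped, at 46.0 and 26.95 against 59.5 and 44.1 CPM.

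A few cytosolic members lay close to no difference. Kars, the lysyl-tRNA synthetase of both compartments, stood at 72.3 and 61.7 against 65.4 and 64.6 CPM, a log2 fold change of -0.04 (SE 0.18) and the only one of the 20 below 0, though above 0 with library totals as the only scaling (0.036) and without replicate 1 of ethanol alone (0.051). Wars, the tryptophanyl-tRNA synthetase that interferon is known to induce, stood at 20.6 and 25.1 against 27.4 and 24.0 CPM, with overlapping groups. Qars, Dars and Hars, for glutamine, aspartate and histidine, had log2 fold changes of 0.16 (SE 0.17), 0.20 (SE 0.21) and 0.20 (SE 0.17). In Dars only replicate 2 of the gavage group stood out, at 116 CPM, against 91.7 CPM in the other gavage library and a mean of 90.6 ± 0.883 CPM (SD, n = 2) with ethanol alone. For each of these 5 genes and Farsa the SE was as large as the difference or nearly so, which does not show that their levels were the same.

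**Figure D2:**
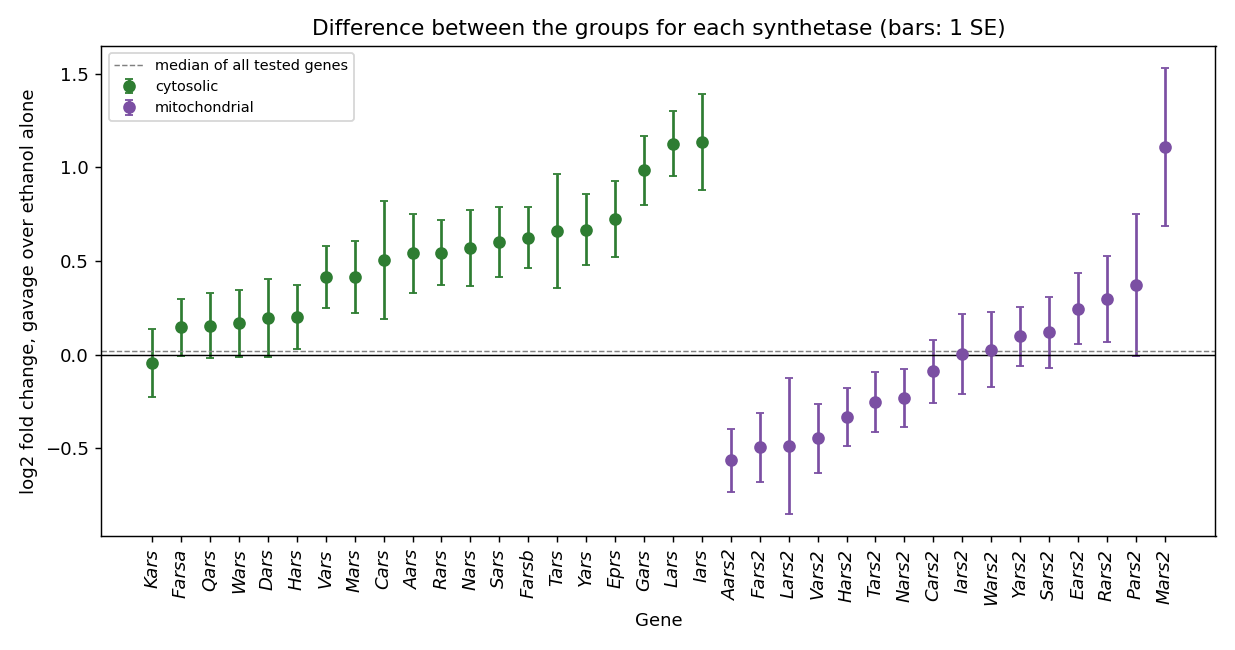
Log2 fold change (gavage over ethanol alone) of 20 cytosolic and 16 mitochondrial synthetases from edgeR's quasi-likelihood fit, with bars of 1 SE, ordered within the cytosolic (green) and mitochondrial (purple) sets. The dashed line is the median of all tested genes, 0.02. Cytosolic values run from -0.04 (Kars) to 1.14 (Iars), and mitochondrial values from -0.56 (Aars2) to 1.11 (Mars2).

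Members of the multisynthetase complex and the other cytosolic enzymes had medians close to each other. The grouping was added after the values had been seen, and no test was made on it. The 8 synthetases of the complex (Eprs, Iars, Lars, Mars, Qars, Rars, Kars and Dars) had a median log2 fold change of 0.48. The 12 others had a median of 0.56. At an unadjusted p under 0.05, 4 of the 8 and 6 of the 12 were higher, against 8.91% of all genes. The complex holds both the largest value of the set, Iars, and the lowest, Kars. Its scaffold proteins carry no charging activity. Aimp1 stood at 29.2 and 20.9 against 26.9 and 26.3 CPM and Aimp2 at 10.6 and 8.65 against 13.0 and 9.43 CPM, with overlapping groups. Eef1e1, the third scaffold, stood at 8.84 and 8.09 against 10.0 and 13.2 CPM (log2 fold change 0.46, SE 0.22, adjusted p = 0.33 in edgeR's quasi-likelihood test). Of the 3 scaffold genes, all had a log2 fold change above 0, where 51.7% of all genes did, with a median of 0.22. In that test, 0 of the 3 had an unadjusted p under 0.05.

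Among the mitochondrial enzymes, those for alanine and phenylalanine stood lower after the gavage. Aars2 (chromosome 17, 45506841 to 45520843) stood at 17.7 and 17.8 CPM with ethanol alone and at 12.05 and 12.02 CPM with gavage (log2 fold change -0.56, SE 0.17, adjusted p = 0.202 in edgeR's quasi-likelihood test). Fars2 (chromosome 13, 36117412 to 36726280) stood at 31.5 and 25.0 against 19.2 and 20.9 CPM, a log2 fold change of -0.50 (SE 0.18). Both were among the 3 mitochondrial members lower at an unadjusted p under 0.05, of which DESeq2 called 0. Nrn1, on the opposite strand, overlaps 8.72% of the exon bases of Fars2, and the strand setting of the counting is not given in the sources used here.

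Vars2, Hars2, Tars2, Nars2 and Cars2 also had both gavage libraries below both others. Vars2 stood at 24.8 and 22.2 against 15.4 and 19.1 CPM (log2 fold change -0.45, SE 0.18), and Hars2 at 30.3 and 30.5 against 22.8 and 25.5 CPM (log2 fold change -0.33, SE 0.15). Cars2 differed little, at 15.7 and 15.5 against 14.9 and 14.5 CPM. Lars2, the most abundant mitochondrial member by CPM, differed more between replicates than between groups, at 122 and 187.5 against 80.7 and 140.2 CPM. Both of its libraries numbered 1 lay below the library numbered 2 of the same group. Iars2, the next in abundance, stood at 70.9 and 90.1 against 74.0 and 87.6 CPM, a log2 fold change of 0.01 (SE 0.22), and 22.9% of its exon bases overlap Rab3gap2 on the opposite strand.

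Mars2, the mitochondrial methionyl-tRNA synthetase, went the other way. It stood at 3.32 and 7.33 CPM with ethanol alone and at 9.63 and 13.4 CPM with gavage, from 91, 222, 303 and 403 counts. Its log2 fold change was 1.11 (SE 0.42, adjusted p = 0.256 in edgeR's quasi-likelihood test, 0.127 in DESeq2), and its unadjusted p was under 0.05. The groups did not overlap, though the ethanol alone libraries differed from each other by more than 2 times, and leaving out 1 library at a time gave log2 fold changes from 0.62 to 1.73. Without replicate 1 of ethanol alone or replicate 2 of gavage, 0 mitochondrial members stood higher at that threshold, and without replicate 2 of ethanol alone 2 did. Rars2, Ears2, Sars2, Yars2 and Wars2 were higher without overlap by small amounts, with log2 fold changes from 0.03 (Wars2) to 0.30 (Rars2). The groups of Wars2 all but touched, at 6.21 and 6.441 against 6.453 and 6.442 CPM. Pars2, the least counted member, had 66, 104, 89 and 143 counts and overlapping groups.

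Per kilobase of the longest coding transcript, cytosolic members had a median level of 20.9 CPM per kb over the 4 libraries and mitochondrial members one of 6.39. The highest levels were those of Nars (54.3 CPM per kb), Tars (53.0), Aars (46.1), Dars (44.7) and Eprs (40.4). Lars2, at 34.1 CPM per kb, was the mitochondrial member with the highest level and the sixth of all 37. The lowest was Mars2, at 0.745 CPM per kb, whose annotated transcript of 11294 bases is the longest of the set. The lengths come from an annotation that may not be the one used in counting.

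Pairing each cytosolic enzyme with its mitochondrial partner compares the compartments within a library, where the scaling between libraries cancels. The ratio of CPM per kb, cytosolic over mitochondrial, was higher with gavage in 17 of 18 pairs by group means, with a median difference of 0.63 on the log2 scale. In 15 of the 18 both gavage libraries lay above both others, and in 0 below. Of single genes, 27.4% were higher without overlap, but no such share was computed for ratios of 2 genes. Lars over Lars2 differed most, with log2 ratios of -2.02 and -2.46 with ethanol alone and -0.17 and -1.03 with gavage. Aars over Aars2 had log2 ratios of 2.72 and 2.91 against 3.88 and 3.97, and Iars over Iars2 -0.55 and -0.31 against 0.92 and 0.54. For isoleucine the cytosolic transcript was thus below the mitochondrial one with ethanol alone and above it with gavage, per kb. Farsa over Fars2 crossed 0 in the same way, at -0.57 and -0.19 against 0.37 and 0.14. Where a pair lies against 0 depends on the lengths used and on reads in overlaps, such as the 22.9% of Iars2 exon bases in Rab3gap2. The pair for methionine was the exception to the higher ratio, with log2 ratios of 6.22 and 5.00 against 5.20 and 4.43. The pairs for proline and tryptophan also overlapped. Eprs and Fars2 each stand in 2 pairs, so the 18 are not independent.

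**Figure D3:**
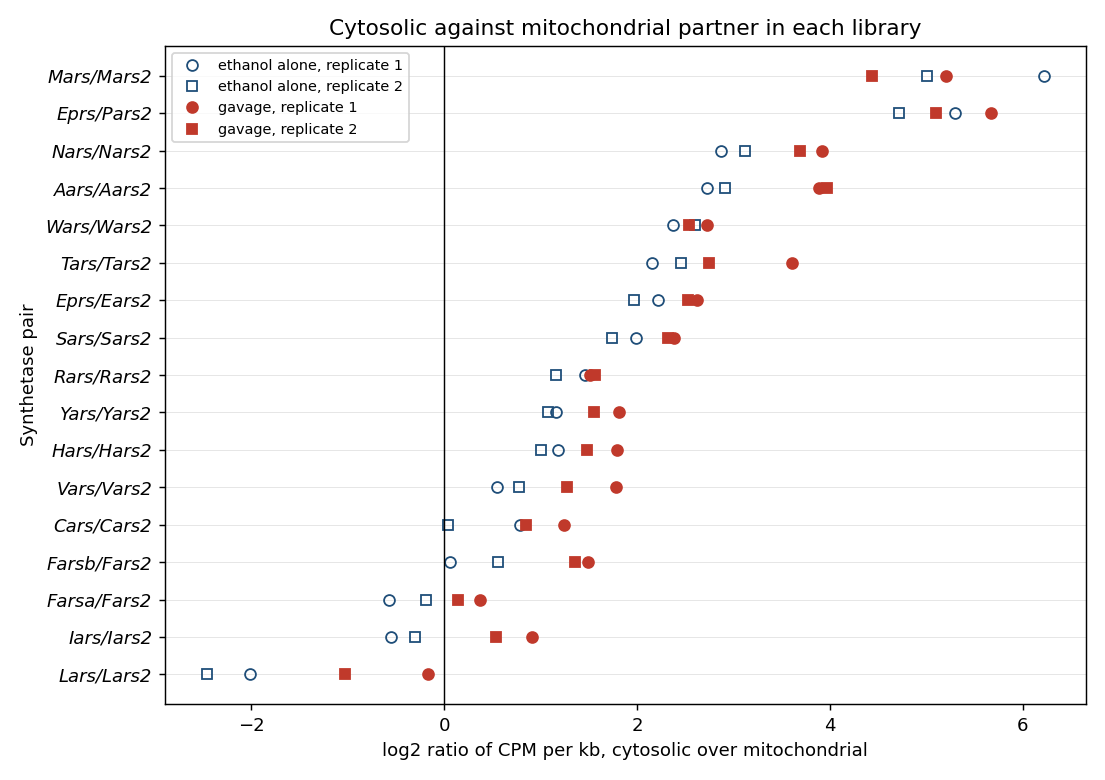
Log2 ratio of CPM per kb, cytosolic over mitochondrial partner, for 17 of the pairs in each library, ordered by the ethanol alone mean, with open blue symbols for ethanol alone and filled red for gavage. In 14 of these pairs both red symbols lie to the right of both blue ones, and Mars over Mars2 is the pair whose group mean is lower with gavage.

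As a value per library, the mean log2 CPM of the cytosolic members minus that of the mitochondrial members was 1.69 and 1.55 with ethanol alone and 2.36 and 2.04 with gavage. Both gavage libraries lay above both others, and the group means differed by 0.58. Leaving out Gars and Kars gave 0.59. The libraries that carried muscle and adipose transcripts, those numbered 1, differed by 0.67 and those numbered 2, with summed muscle markers of 10.9 and 1.16 CPM, by 0.49. Within the libraries numbered 2 alone, 19 of 20 cytosolic and 7 of 17 mitochondrial members were higher with gavage, where 50.3% of all tested genes were. The median difference in log2 CPM of the cytosolic members was 0.43. Within those numbered 1 the counts were 19 of 20 and 8 of 17, against 51.9%, with a cytosolic median of 0.57. The cytosolic counts could hardly be low, because 17 of the 20 had both gavage libraries above both others. The part of the pancreatic transcripts in replicate 1 of ethanol alone was not tested, and without that library the median log2 fold change of the cytosolic members was 0.45.

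Sequence around the start of these genes was read to see which hold the core of the C/EBP-ATF response element, TGATGNAA, to which ATF4 binds with a C/EBP partner, since most cytosolic members stood higher together. Windows from 250 bases before to 50 after the start were given for 13 cytosolic and 14 mitochondrial members (RefSeq, GRCm38.p6). TGATGNAA on either strand stood in 5 of the 13 cytosolic windows (38.5%), in 0 of the 14 mitochondrial ones and in 4.51% of the 27025 genes with such a window. Within the 250 bases before the start alone the shares were 3 of 13, 0 of 14 and 3.91%, and the wider window was chosen after the data had been seen. A match in each of these 5 genes is shown within 30 bases, written 5′ to 3′ on the strand of the gene, with the match in capitals. The match of Yars reads along the gene, and the others read on the opposite strand, so that they appear here as the reverse complement.
Aars (chr8:111033840-111033869, + strand): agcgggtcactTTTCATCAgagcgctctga
Gars (chr6:55037960-55037989, + strand): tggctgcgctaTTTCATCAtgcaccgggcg
Iars (chr13:49682126-49682155, + strand): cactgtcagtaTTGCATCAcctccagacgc
Tars (chr15:11399655-11399684, - strand): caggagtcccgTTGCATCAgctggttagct
Yars (chr4:129189895-129189924, + strand): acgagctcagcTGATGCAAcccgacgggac
The matches of Aars at base 10, Iars at base 8 and Yars at base 4 after the start lie in annotated exons. Those of Gars at base -30 and Tars at base -15 lie before the start.

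The 5 cytosolic genes with a match (Aars, Gars, Iars, Tars and Yars) had log2 fold changes from 0.54 to 1.14 with a median of 0.67, and all 5 had groups that did not overlap. The 8 with a window and no match had log2 fold changes from -0.04 to 0.73 with a median of 0.31, and 7 of them were higher without overlap. The 7 with no window in the table had a median of 0.51, and 5 of them were higher without overlap. Over all tested genes that share was 27.4%. These are descriptions of few genes, with no test. Iars (1.14) and Yars (0.67) hold a match only after the start, in the part of the wider window chosen after the data had been seen. With the bases before the start alone, both join the genes without a match, which then include the largest value. The difference between the medians of 0.67 and 0.31 therefore depends on that choice, and medians for the narrower window were not computed. A match is only a run of letters, and no match says only that these letters are not in this window. The upstream window of Gars is shown whole, as that of the gene with the largest difference among those with a match before the start.
Gars upstream window (chr6:55037751-55038000, + strand): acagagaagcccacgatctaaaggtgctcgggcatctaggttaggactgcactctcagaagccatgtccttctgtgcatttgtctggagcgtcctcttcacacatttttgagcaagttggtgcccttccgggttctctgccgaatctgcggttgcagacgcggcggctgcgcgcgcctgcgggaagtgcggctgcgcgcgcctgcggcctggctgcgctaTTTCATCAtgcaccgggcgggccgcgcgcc

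The E-box CACGTG is the core site of MYC and of several other factors. In the wider window it stood in 4 of the 13 cytosolic members (30.8%), in 1 of the 14 mitochondrial ones (Ears2) and in 8.09% of all genes. Within the bases before the start alone the shares were 3 of 13, 0 of 14 and 6.86%. The E-box does not overlap the other motif in these windows. In the wider window Aars, Tars and Iars held both motifs and Farsb held the E-box only. The E-boxes of Tars at base 20 and Ears2 at base 22 lie after the start, in annotated exons. That of Aars at base -146 also lies in an annotated exon. The E-boxes are shown in the same way.
Iars, E-box (chr13:49682049-49682078, + strand): gaccaatcgccaCACGTGttgtttgtaggt
Farsb, E-box (chr1:78488919-78488948, - strand): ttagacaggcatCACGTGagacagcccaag
Aars, E-box (chr8:111033684-111033713, + strand): agtcaaccctgtCACGTGacactccatgtc
Tars, E-box (chr15:11399622-11399651, - strand): tccgcctgtggcCACGTGgcgcacgcgcag
The E-box of Iars, the cytosolic member with the largest difference, lies 69 bases before the start, in the stretch shown here up to its first annotated exon.
Iars upstream window (chr13:49681880-49682099, + strand): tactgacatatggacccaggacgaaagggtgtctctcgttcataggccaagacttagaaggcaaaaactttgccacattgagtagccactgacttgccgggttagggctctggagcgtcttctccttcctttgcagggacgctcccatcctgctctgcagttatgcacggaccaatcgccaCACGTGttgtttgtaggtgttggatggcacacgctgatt
Mars2, the mitochondrial member with a log2 fold change of 1.11, held neither motif in its window. Its upstream stretch is shown for comparison.
Mars2 upstream window (chr1:55236927-55237176, + strand): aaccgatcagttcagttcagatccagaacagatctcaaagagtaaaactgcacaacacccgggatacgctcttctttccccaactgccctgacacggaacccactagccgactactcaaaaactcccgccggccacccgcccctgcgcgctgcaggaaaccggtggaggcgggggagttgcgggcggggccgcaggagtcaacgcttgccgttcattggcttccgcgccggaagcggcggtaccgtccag

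Known targets of ATF4 in the amino acid response lay on both sides. Of 37 listed genes, 34 were tested, and 10 stood higher and 5 lower by unadjusted p under 0.05 (8.91% and 9.85% over all genes), with a median log2 fold change of 0.39. DESeq2 called 7 higher and 4 lower (4.37% and 5.43% over the genes it tested), and edgeR's quasi-likelihood test with adjustment called 0. Atf4 itself, which is regulated mainly in translation, stood at 101.9 and 101.9 against 91.9 and 109.6 CPM. Asns, the asparagine synthetase and a defining target, stood at 2.34 and 0.429 against 12.8 and 8.67 CPM (log2 fold change 2.96, SE 0.76, adjusted p = 0.179 in edgeR's quasi-likelihood test, 0.00125 in DESeq2). Psat1, of serine synthesis, stood at 0.913 and 1.32 against 20.3 and 19.6 CPM. For both genes the gavage libraries lay well above the others, as for Iars and Lars.

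Trib3 and Ddit3, named by the rule for this list, differed between the gavage libraries. Trib3, a pseudokinase that restrains the response, stood at 13.9 and 8.52 CPM with ethanol alone and at 8.84 and 83.4 CPM with gavage. Ddit3, the factor CHOP, stood at 11.7 and 9.78 against 8.14 and 28.03 CPM, and 68 of its bases overlap Mars on the opposite strand. Both were high only in replicate 2 of the gavage group, whereas the summed cytosolic synthetases were high in both gavage libraries. The most abundant genes of the list lay on both sides. Atf5, a related factor, stood at 631 and 601 against 725 and 1003 CPM, Gpt2, an alanine transaminase, at 413 and 498 against 557 and 1057 CPM, and Cbs, the entry enzyme of transsulfuration, at 707 and 658 against 272 and 309.9 CPM.

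Other genes of translation were counted list by list, and no difference between lists was tested. Of 9 cytosolic elongation and release factors, 4 had a log2 fold change above 0 (51.7% over all genes), with a median of -0.18. By unadjusted p under 0.05, 1 stood higher and 0 lower, where the shares over all genes were 8.91% and 9.85%. That gene was Etf1, the release factor, at 129 and 132 against 195 and 201 CPM (log2 fold change 0.60, SE 0.19), while Eef1a1, which carries charged transfer RNA to the ribosome, stood at 1341 and 951 against 925 and 809.7 CPM. Eef2, the translocation factor, stood at 1614 and 1322 against 1388 and 1173 CPM. Of 18 mitochondrial translation factors tested, 0 were higher and 0 lower at that threshold (median -0.01), DESeq2 called 0, and Gfm1, the most abundant, stood at 76.0 and 110.5 against 101.7 and 124.3 CPM. Gfm2, of ribosome recycling, and Mtif2, of initiation, had log2 fold changes of -0.10 (SE 0.24) and -0.01 (SE 0.17). Of 12 other charging-related genes tested, 0 passed in either direction in edgeR's quasi-likelihood test and 0 were called by DESeq2. Among these, Gatb, a subunit of the enzyme that makes mitochondrial glutaminyl-tRNA, stood at 37.01 and 40.1 against 22.4 and 31.98 CPM, and Sepsecs, which makes selenocysteinyl-tRNA, at 66.9 and 87.7 against 87.2 and 103.7 CPM. Gatc, another subunit of the former enzyme, stood at 20.5 and 19.8 against 20.4 and 29.6 CPM.

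Of 14 genes of the eIF2 kinases, eIF2 and its exchange factor eIF2B, 12 had a log2 fold change above 0 (51.7% over all genes), with a median of 0.16. By unadjusted p under 0.05, 3 stood higher and 0 lower (8.91% and 9.85% over all genes), and 7 were higher and 0 lower without overlap (27.4% and 27.2%). Gcn1l1, the co-activator of GCN2, stood at 38.8 and 57.6 against 61.3 and 67.1 CPM. Eif2ak1, the heme-regulated kinase, stood at 50.01 and 50.3 against 51.8 and 44.1 CPM. Of 10 tested genes of MYC and its partners, 4 stood higher and 1 lower by unadjusted p under 0.05. Myc stood at 2.89 and 2.18 CPM with ethanol alone and at 8.07 and 15.6 CPM with gavage (log2 fold change 2.23, SE 0.39, adjusted p = 0.133 in edgeR's quasi-likelihood test, 8.21e-05 in DESeq2). Both gavage libraries lay above both others. Mxd4, a repressor that competes with MYC for its partner MAX, stood at 133 and 119 against 84.6 and 80.2 CPM (log2 fold change -0.61, SE 0.19). Mlx, a partner of the glucose-sensing factors, stood at 27.3 and 34.98 against 46.7 and 41.9 CPM, and Mlxipl, one of those factors, at 401.5 and 298 against 349.9 and 246 CPM.

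**Figure D4:**
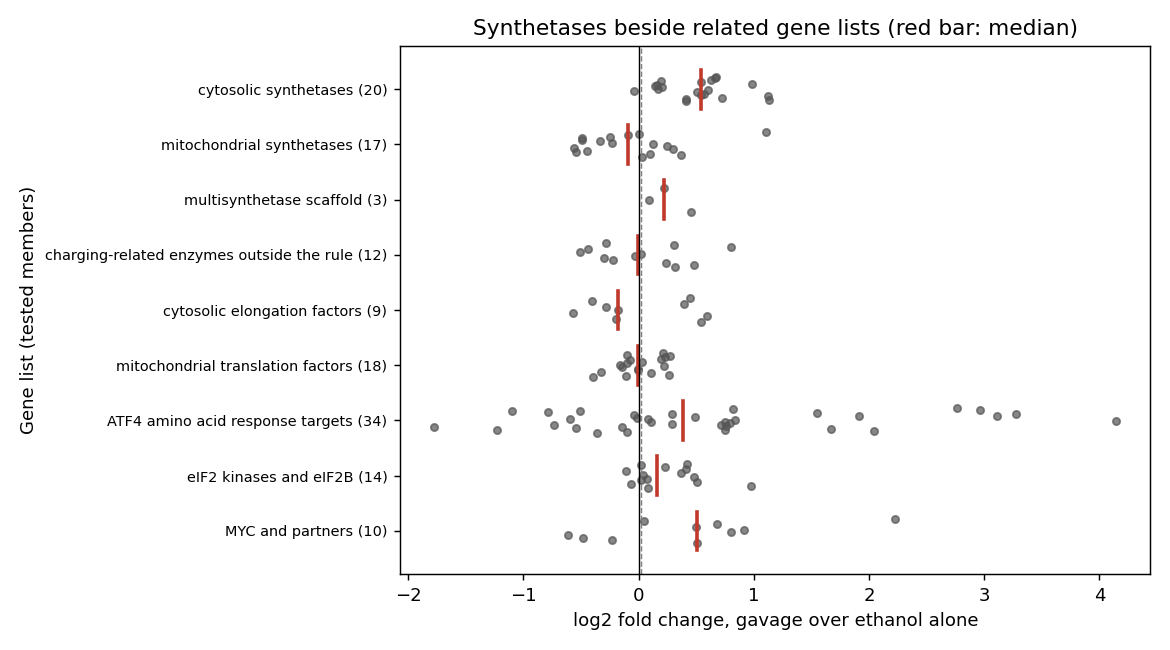
Log2 fold changes (gavage over ethanol alone) of the tested members of each gene list, with the number tested in brackets, as points spread vertically for legibility, a red bar at each median and a dashed line at the median of all tested genes. The cytosolic synthetases have a median of 0.54 and the mitochondrial ones of -0.09, and the ATF4 list spreads from -1.77 to 4.15.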

How the data were processed

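The authors deposited raw counts, as whole numbers for each gene symbol in each of the 4 libraries. Per the submitters' processing notes, the build was GRCm38 and the tools were edgeR, HTSeq, STAR 2.6.0a and bcl2fastq 2.20.0.422, with no role stated. No source used here gives the annotation or the handling of strand and of multiply mapped reads. Per the labels, library kits of TruSeq and of KAPA are both mentioned.

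Counts were fitted across all genes in R 4.3.3 with edgeR 4.0.16: filterByExpr by group (minimum count 10, minimum total 15) left 13309 genes, libraries were scaled by TMM, and gavage was compared with ethanol alone by the 2-sided quasi-likelihood F-test without covariates, with Benjamini-Hochberg adjustment and a threshold of 0.05. Dividing the size of a log2 fold change by the root of its F statistic gave its SE. CPM use the TMM-scaled totals, and mean log2 CPM a prior count of 2. Libraries of a group differed by more than sampling noise (chi-square per degree of freedom 149.8 and 164.8). The fit was tested on simulated data with a smaller spread than these libraries, whose common dispersion was 0.0966. How it performs at this spread was not tested.

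Every synthetase row was named, with all scaffold genes, the 3 most abundant genes of each other list, and Atf4, Asns, Trib3, Ddit3, Psat1 and Myc. The members and lists were chosen with earlier results of these data known. Gene positions, exon overlaps and transcript lengths came from GENCODE M21 (GRCm38), and promoters from RefSeq (GRCm38.p6). Values of 1 mitochondrial member, which stays in the counts and sums, and 1 promoter match are not reported here. Motifs were TGATGNAA and CACGTG on both strands. A RefSeq window was not in the table used for Cars, Hars, Hars2, Lars, Nars, Pars2, Rars, Vars and Wars. Alternatives were scaling by library totals, by upper quartiles or by the size factors of DESeq2 1.42.0, a replicate block, no filter or 1 CPM in 2 libraries, DESeq2, limma-voom (limma 3.58.1), the likelihood-ratio test, each library left out, and the contrast without Gars and Kars.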

Additional observations from a re-analysis of the deposited data

How the results depend on the processing

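The contrast of cytosolic with mitochondrial members ran from 0.42 to 0.745 with 1 library left out. Its direction could not change there, because both gavage libraries lay above both others. Scaling between libraries nearly cancels in it, so the scaling alternatives could hardly move it either. The median log2 fold change of the cytosolic members stayed above 0 in all alternatives. With 1 library left out it could hardly do otherwise, because 17 of the 20 members had both gavage libraries above both others. That median was 0.62 with library totals and from 0.425 to 0.587 with 1 library left out. Genes called over all genes numbered 0 in the main analysis, 1177 with DESeq2, 549 with the likelihood-ratio test and from 0 to 31 with 1 library left out. Cytosolic members higher at an unadjusted p under 0.05 numbered from 3 to 8 with 1 library left out, against 10. Mitochondrial members higher numbered from 0 to 2 and lower from 0 to 4 in those fits, and lower ones 5 with upper-quartile factors and 0 with the likelihood-ratio test. With 1 library left out, the lone library of a group is assumed to vary like the other group. The cause was not tested.

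Same-numbered libraries deviated together (correlation 0.587 over genes), but the labels do not say that a number marks a shared batch. With the replicate block 410 genes were called (Lars had an adjusted p = 0.0364 in edgeR's quasi-likelihood test), and the median log2 fold change was 0.55 for the cytosolic members. The contrast was 0.58, a value that the block cannot change with 1 library of each group per number. At an unadjusted p under 0.05, 10 cytosolic members were higher with the block.

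Some log2 fold changes changed sign with the setting. With library totals these were Kars (0.036), Atf4 (0.057), Eif2ak1 (0.014) and Mtif2 (0.067), and with upper-quartile factors Iars2 (-0.031), Wars2 (-0.008) and Eif2b5 (-0.015). With 1 library left out, Aimp1 from -0.189 to 0.326, Aimp2 from -0.026 to 0.428, Atf4 from -0.154 to 0.105, Ddit3 from -0.407 to 1.382, Eif2ak1 from -0.187 to 0.041, Eif2b5 from -0.081 to 0.075 and Gfm2 from -0.336 to 0.101 crossed 0. The same held for Iars2 from -0.183 to 0.131, Kars from -0.209 to 0.051, Mtif2 from -0.145 to 0.117, Pars2 from -0.054 to 0.698, Trib3 from -0.344 to 2.898, Wars2 from -0.023 to 0.026 and Yars2 from -0.005 to 0.123. Trib3 and Ddit3 were below 0 without replicate 2 of the gavage group.

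Mars2 and Pars2, both with few counts, had the largest SE of the 37 members (0.42 and 0.38). Few counts did not always go with a large SE, which was 0.36 for the abundant Lars2 and 0.20 for Wars2. With 2 libraries a group the estimate of the spread is itself imprecise.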

Other observations

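Synthetases fall into class I and class II by the fold of their catalytic domain. This split was looked at after the values had been seen, and no test was made on it. Among the mitochondrial members, 6 of 8 of class II had a log2 fold change below 0 (median -0.29), and 3 of 9 of class I did (median 0.03), where 48.3% of all tested genes were below 0. Aars2 and Fars2 are of class II, and Mars2 is of class I. Among the cytosolic members the medians were 0.51 for 9 of class I and 0.56 for 10 of class II, with Eprs, which joins an enzyme of each class, left out.

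Of the eIF2B subunits, Eif2b3 and Eif2b4 were picked here with their values already known. Eif2b3 stood at 8.22 and 9.58 CPM with ethanol alone and at 17.7 and 17.4 CPM with gavage (log2 fold change 0.98, SE 0.19, adjusted p = 0.134 in edgeR's quasi-likelihood test, 0.00486 in DESeq2). Eif2b4 stood at 29.5 and 30.5 against 45.1 and 40.1 CPM. Eif2b5, the catalytic subunit, stood at 49.2 and 46.0 against 46.6 and 50.1 CPM, so the log2 fold changes of these subunits ran from 0.02 to 0.98. The differences between them were not tested.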
